A study of Mus musculus with 6 samples.

Results

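The 7 transcription factor genes described here, Figla, Nobox, Sohlh1, Sohlh2, Lhx8, Taf4b and Tbpl2, act in the oocytes of early ovarian follicles. They were chosen by symbol from the deposited table, and all 7 had a row among its 16454 genes. Polyadenylated RNA was sequenced from whole ovaries of CD1 mice, an outbred stock, at postnatal day 21. The animals belonged to generation 3. Dams at the head of the DEHP lineage were given di(2-ethylhexyl) phthalate (DEHP), which softens plastics, at 20 µg/kg/day. Those of the control lineage were given tocopherol-stripped corn oil alone. There were 3 ovaries of each lineage, sequenced one by one. The number of founding dams and the litters of these ovaries are not given in the labels, and a p-value here covers variation among these 6 ovaries, part of which may be technical. The question put to these genes is whether their ovarian level differs by the dose of the ancestor.

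In an early follicle an oocyte is enclosed by a few somatic cells, and a small network of transcription factors keeps the oocyte alive, lets it grow and turns on the genes of the egg coat. FIGLA, SOHLH1 and SOHLH2 are basic helix-loop-helix (bHLH) proteins that bind the E-box motif as dimers, while NOBOX and LHX8 carry a homeodomain. TAF4B and TBPL2 belong to the general transcription machinery: TAF4B is a gonad-enriched subunit of TFIID, and TBPL2 takes the place of the TATA-binding protein in growing mouse oocytes. In mice, loss of Figla prevents primordial follicles from forming, and loss of Nobox, Sohlh1, Sohlh2 or Lhx8 is followed by early loss of oocytes. In whole ovary, fewer oocytes and less RNA per oocyte cannot be told apart.

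The promoters of 4 of the factors are shown because SOHLH1, SOHLH2 and FIGLA bind E-boxes and Nobox and Lhx8 act downstream of SOHLH1 in mice. Each is 300 bases from RefSeq's annotation of GRCm38.p6, from 250 bases before the transcription start to 50 after it, read 5′ to 3′ on the gene's strand. Capitals mark the E-box CANNTG, which reads the same on both strands, and the NOBOX element TAATTG on either strand, which none of the 4 holds. The positions are chr2:25847199-25847498 on the minus strand for Sohlh1, chr6:43309505-43309804 on the minus strand for Nobox, chr6:86016941-86017240 on the plus strand for Figla and chr3:154330511-154330810 on the minus strand for Lhx8. The Figla and Nobox windows lie wholly inside the gene spans given further below. Their starts are therefore not the outer ends of those spans, and bases before the outer ends were not searched.
Sohlh1: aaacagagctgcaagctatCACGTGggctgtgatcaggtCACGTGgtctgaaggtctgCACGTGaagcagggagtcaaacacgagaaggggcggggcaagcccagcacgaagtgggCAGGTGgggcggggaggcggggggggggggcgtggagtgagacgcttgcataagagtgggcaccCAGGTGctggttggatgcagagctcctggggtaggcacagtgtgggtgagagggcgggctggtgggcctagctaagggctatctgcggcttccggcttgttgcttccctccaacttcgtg
Nobox: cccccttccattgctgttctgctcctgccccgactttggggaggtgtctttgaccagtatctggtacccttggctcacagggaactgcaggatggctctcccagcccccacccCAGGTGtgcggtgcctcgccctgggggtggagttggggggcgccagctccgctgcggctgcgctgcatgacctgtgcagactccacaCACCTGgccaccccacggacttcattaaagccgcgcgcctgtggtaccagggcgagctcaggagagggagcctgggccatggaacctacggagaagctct
Figla: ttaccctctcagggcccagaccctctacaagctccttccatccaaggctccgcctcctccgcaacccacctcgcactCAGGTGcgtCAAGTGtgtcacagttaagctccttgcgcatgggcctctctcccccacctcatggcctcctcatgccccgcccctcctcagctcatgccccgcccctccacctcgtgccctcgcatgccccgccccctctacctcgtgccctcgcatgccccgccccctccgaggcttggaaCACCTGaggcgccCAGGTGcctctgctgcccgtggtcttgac
Lhx8: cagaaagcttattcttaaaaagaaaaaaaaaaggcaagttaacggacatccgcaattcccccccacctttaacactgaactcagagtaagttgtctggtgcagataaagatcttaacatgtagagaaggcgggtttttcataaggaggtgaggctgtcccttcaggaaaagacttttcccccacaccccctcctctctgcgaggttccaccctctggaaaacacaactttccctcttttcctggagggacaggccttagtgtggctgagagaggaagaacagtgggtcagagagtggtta

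The Sohlh1 window held 5 E-boxes, starting 231, 211, 192, 134 and 70 bases before the start, and 3 of them read CACGTG. At least 5 E-boxes were found in 2.1% of 32851 promoter windows of this length, and at least 1 in 72.3%. Figla had 4 E-boxes, of which 2 lay before the start used, and Nobox had 2, starting 137 and 50 bases before its own. The Lhx8 window held 0. The window of Tbpl2, not printed, held 5 and that of Sohlh2 held 1. The NOBOX element TAATTG, the only form searched, occurred in 8% of all windows and in 0 of the 6 searched for these genes. No window of Taf4b was searched. A match is a string of letters, and nothing was measured on binding.

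The ovaries expressed the oocyte genes on which the label of these factors rests. Oocyte defining genes such as Gdf9 and Zp2, which encode a growth factor and an egg coat protein, were at 226 to 241 and 245 to 277 CPM (read counts scaled to library size) in DEHP-lineage ovaries and at 249 to 317 and 267 to 349 CPM in control-lineage ovaries. Of 21 listed oocyte genes measured, 20 had a lower mean in the DEHP lineage, as did 53.1% of all genes. Dazl was higher, at 14.3 to 15.7 CPM in DEHP-lineage ovaries and 12.2 to 13.9 CPM in control-lineage ovaries. The values were deposited as log2 CPM with a surrogate variable, an estimated nuisance direction across samples, already removed, which makes the SDs given here too small. How far that variable went with lineage cannot be told from these values, so the standard errors, intervals and p-values below may also be too small. The depth of the libraries is unknown. Across genes the correlation of DEHP-lineage replicates 1 and 3 was 0.998, where the other pairs of ovaries lay between 0.978 and 0.989, and these 2 ovaries carried the largest weights of the removed direction, -0.60 and 0.75. Values without 1 of them, or with them averaged, are given where they change a direction. Weights of the other ovaries lay between -0.188 and 0.103, so the removal bore mainly on the spread of the DEHP lineage. A smaller SD in that lineage is therefore not read as a result.

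By limma, with p-values adjusted over all genes (Benjamini-Hochberg), none of the 7 factors passed the threshold of 0.05. The count was 0 of 7, beside 7 of 16454 genes (0.0425%) in the whole table. Taf4b alone had an unadjusted p under 0.05 (0.023), which 8.78% of all genes reached. The log2 fold change, DEHP over control lineage, was below 0 for 4 of the 7 and above 0 for Figla, Sohlh2 and Tbpl2, with a median of -0.12. Over all genes 53.1% were below 0, with a median of -0.01. In the authors' deposited table the smallest adjusted p of the 7 was 0.753, for Taf4b, so 0 passed there as well.

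Taf4b (Entrez 72504, GRCm38.p6 chromosome 18, 14783201 to 14960424) had the highest CPM of the 7. Its product is a paralog of the TFIID subunit TAF4, is made in granulosa cells as well as oocytes, and is needed for fertility in female mice. The gene was at 64.7, 57.2 and 63.5 CPM in DEHP-lineage replicates 1, 2 and 3, against 81.0, 66.7 and 90.3 CPM in control-lineage replicates 1, 2 and 3. The highest DEHP-lineage ovary lay just under the lowest control ovary, so the groups did not overlap, as was the case with the DEHP lineage lower for 12.2% of all genes. The log2 fold change was -0.35 (SE 0.12, 95% interval -0.64 to -0.06, adjusted p 0.503 by limma). Leaving out 1 ovary gave values between -0.47 and -0.25, with adjusted p values of 0.132 to 0.678.

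Nobox (Entrez 18291, chromosome 6, 43303674 to 43310072) encodes the homeodomain factor that activates Gdf9 in mouse oocytes. It was at 35.5, 32.1 and 36.6 CPM in DEHP-lineage replicates 1, 2 and 3, against 46.9, 35.5 and 41.1 CPM in control-lineage replicates 1, 2 and 3. Control replicate 2 lay among the DEHP-lineage ovaries, and the other control ovaries were above all of them. Its log2 fold change came to -0.24 (SE 0.12, 95% interval -0.53 to 0.05, adjusted p 0.627 by limma). It was -0.14 without control replicate 1 and -0.34 without control replicate 2 (limma adjusted p 0.504 and 0.19).

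Lhx8 (Entrez 16875, chromosome 3, 154306288 to 154330560) encodes a LIM homeodomain factor of primordial oocytes. Its levels were 9.48, 8.47 and 9.44 CPM in DEHP-lineage replicates 1, 2 and 3 and 10.5, 8.08 and 11.4 CPM in control-lineage replicates 1, 2 and 3. The control ovaries spread above and below the DEHP-lineage ovaries. For this gene limma gave a log2 fold change of -0.12 (SE 0.17, 95% interval -0.52 to 0.29, adjusted p 0.873 by limma). Leaving out 1 ovary gave values from -0.26 without control replicate 2 to -0.013 without control replicate 3.

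Sohlh1 (Entrez 227631, chromosome 2, 25842995 to 25847248) encodes a bHLH factor restricted to germ cells. It was at 3.35, 2.83 and 3.47 CPM in DEHP-lineage replicates 1, 2 and 3, against 4.27, 2.57 and 3.92 CPM in control-lineage replicates 1, 2 and 3. As for Lhx8, control replicate 2 was the lowest ovary of all and the other control ovaries were the highest. The log2 fold change of -0.13 (SE 0.26, 95% interval -0.75 to 0.49) was 0.015 without control replicate 1. Its partner Sohlh2 (Entrez 74434, chromosome 3, 55182044 to 55209957) was the lowest of the 7, at 1.04, 1.17 and 1.14 CPM in DEHP-lineage replicates 1, 2 and 3 and 1.19, 0.784 and 0.991 CPM in control-lineage replicates 1, 2 and 3. The DEHP-lineage ovaries lay within the control range, and the log2 fold change was 0.20 (SE 0.30, 95% interval -0.51 to 0.91). It was 0.34 without control replicate 1 and 0.044 without control replicate 2.

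Figla (Entrez 26910, chromosome 6, 86016494 to 86020996) encodes the factor that activates the 3 zona pellucida genes in mice, as a dimer with a product of Tcf3. It was at 4.34, 2.47 and 4.12 CPM in DEHP-lineage replicates 1, 2 and 3, against 4.04, 3.47 and 2.94 CPM in control-lineage replicates 1, 2 and 3. DEHP-lineage replicate 2 was the lowest ovary and the other DEHP-lineage ovaries were the highest. Between lineages the log2 fold change was 0.03 (SE 0.29, 95% interval -0.64 to 0.70). It fell below 0 without DEHP-lineage replicate 1 (-0.12) or 3 (-0.08), with that pair averaged (-0.10), without control replicate 3 (-0.085) and after quantile normalization (-0.04).

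Tbpl2 (Entrez 227606, chromosome 2, 24071366 to 24096595) varied most between ovaries, over 1.36 on the log2 scale, against 0.49 to 0.82 for the other members. It was at 2.87, 2.06 and 3.05 CPM in DEHP-lineage replicates 1, 2 and 3, against 2.91, 1.19 and 2.39 CPM in control-lineage replicates 1, 2 and 3. Control replicate 2 was below the other 5 ovaries. The log2 fold change of 0.38 (SE 0.39, 95% interval -0.53 to 1.28) rested on that ovary and was -0.008 without it.

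**Figure D1:**
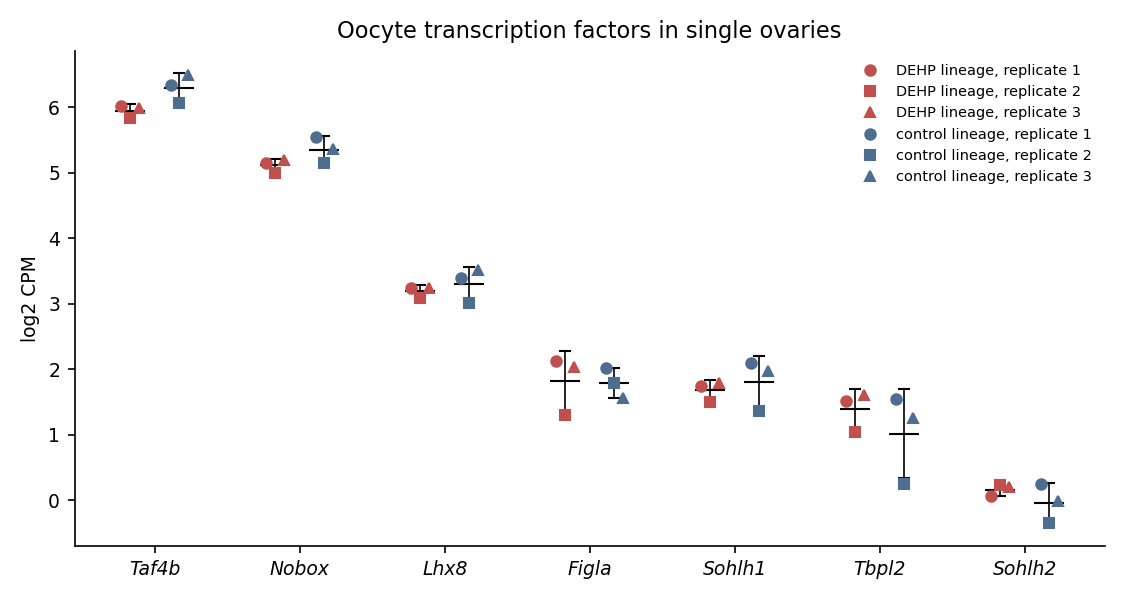
Log2 CPM of the 7 factors in each ovary, DEHP lineage in red and control lineage in blue, with the marker shape giving the replicate and black lines the mean and SD (n = 3 each). Only Taf4b shows all DEHP-lineage ovaries below all control-lineage ovaries, and its adjusted p is 0.503.

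Between genes, levels were compared per kilobase of merged exon in GENCODE's annotation of the same build, as CPM per kb. In DEHP-lineage ovaries Nobox was highest, at 17.3 ± 1.17 CPM per kb, followed by Taf4b at 12.0 ± 0.782 and Figla at 4.36 ± 1.23 (SD, n = 3). Lhx8 followed at 3.61 ± 0.226, Sohlh1 at 2.50 ± 0.264, Tbpl2 at 1.93 ± 0.384 and Sohlh2 at 0.473 ± 0.029 CPM per kb. The order was the same in control-lineage ovaries, where Nobox was at 20.5 ± 2.85, Taf4b at 15.4 ± 2.31 and Sohlh2 at 0.417 ± 0.085 CPM per kb (SD, n = 3). The ranges of Figla and Lhx8 overlapped within each lineage, as did those of Sohlh1 and Tbpl2, and those of Lhx8 and Sohlh1 overlapped in the control lineage. The separate ranks of these neighbours were not resolved. Taf4b led on CPM and came after Nobox per kb because its merged exons span 5.15 kb, against 2.01 kb for Nobox. None of the 7 shared a 31-base word with a transcript of another annotated gene (0% each), and none overlapped an exon of another gene in that annotation.

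**Figure D2:**
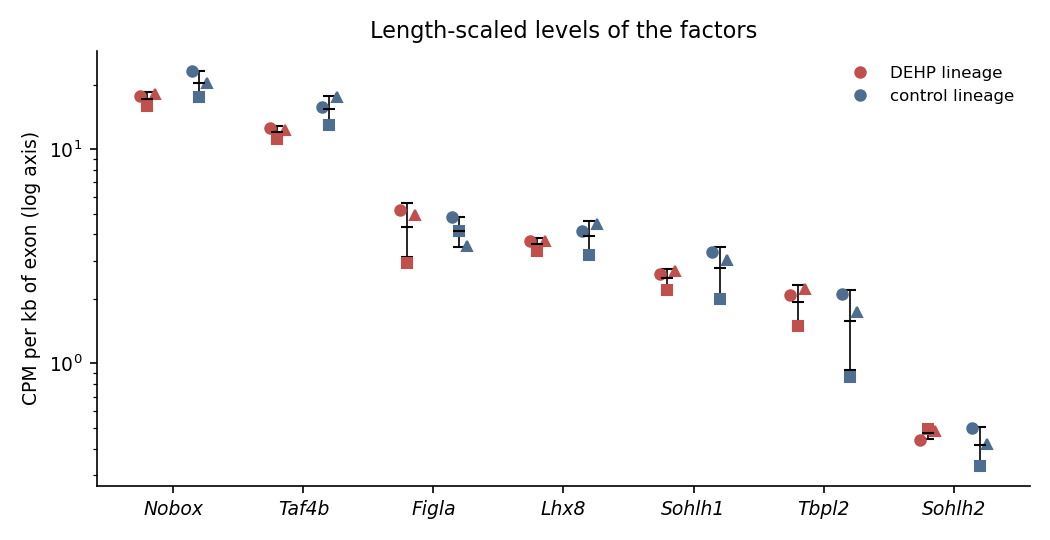
CPM per kb of merged exon for the 7 factors on a log axis, with 1 point per ovary, DEHP lineage in red and control lineage in blue, and black lines for the mean and SD (n = 3 each). Nobox and Taf4b stand above 11 CPM per kb in every ovary and Sohlh2 below 0.51.

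Several factors followed the oocyte genes from ovary to ovary, within the lineages as well as between them. A list of 21 measured oocyte genes that holds none of the 7 had, per ovary, a median relative to each gene's mean of the 6 ovaries of -0.04, -0.22 and -0.03 in DEHP-lineage replicates 1, 2 and 3. It was at 0.21, -0.13 and 0.21 in control-lineage replicates 1, 2 and 3. Nobox was at -0.08, -0.23 and -0.04 on the same log2 scale in DEHP-lineage replicates 1, 2 and 3, and at 0.32, -0.09 and 0.13 in control-lineage replicates 1, 2 and 3. Its root mean square difference from the oocyte list was 0.060, while its own deviation from its mean was 0.177. The same values were 0.063 and 0.168 for Lhx8, 0.092 and 0.224 for Taf4b and 0.123 and 0.252 for Sohlh1. For these 4 genes the difference was under 0.5 times the gene's own deviation, which held for 1.35% of the 14442 genes with a mean log2 CPM of at least 0. This is a description over 6 ovaries that share the removal of the surrogate variable, and the list was chosen with results of these data known. The removal also draws DEHP-lineage replicates 1 and 3 together for nearly every gene, so their likeness adds little. Figla (0.288 and 0.293) and Tbpl2 (0.417 and 0.470) lay nearly as far from the list as from their own means, and Sohlh2 (0.238 and 0.206) lay farther from the list.

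**Figure D3:**
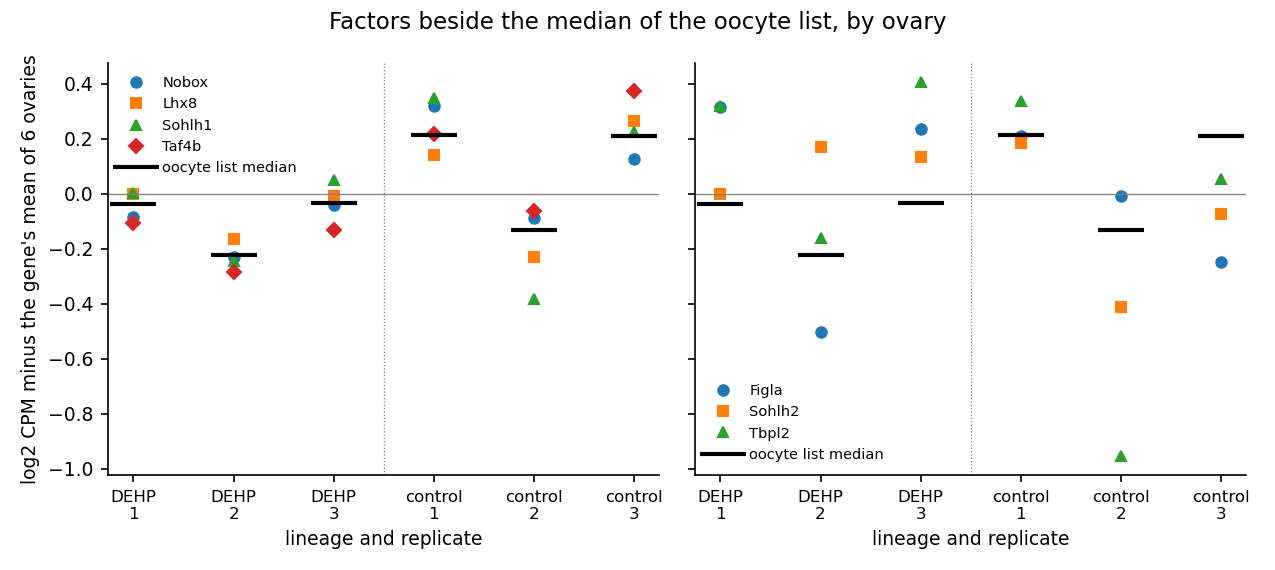
Log2 CPM of each factor minus its mean of the 6 ovaries, by ovary, with black bars for the median of 21 oocyte genes. The left panel holds Nobox, Lhx8, Sohlh1 and Taf4b, which lie near the bars, and the right panel holds Figla, Sohlh2 and Tbpl2, which lie farther off. The genes were placed in panels after their values were seen.

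Levels were also set against the oocyte list, by subtracting the median of the list in each ovary. As the list was lower in the DEHP lineage, this adds 0.20 to the log2 fold change of every gene, and the median over all genes becomes 0.18. The log2 level of Nobox minus the list was 5.21 ± 0.021 in the DEHP lineage and 5.26 ± 0.094 in the control lineage (SD, n = 3 each), a difference of -0.04 (exact permutation p 0.5, two-sided). For Taf4b the difference was -0.16, with 6.05, 6.06 and 6.02 in DEHP-lineage replicates 1, 2 and 3 against 6.13, 6.19 and 6.29 in control-lineage replicates 1, 2 and 3 (exact permutation p 0.1, two-sided). The groups did not overlap on this scale either, with the DEHP lineage lower as for 1.46% of all genes, and 0.1 is the smallest p that 3 against 3 ovaries allow. The shift applied to every gene is part of that share. By limma on this scale the difference of Taf4b had an SE of 0.207 and an adjusted p of 0.817. The differences above 0 were those of Tbpl2 at 0.57, Sohlh2 at 0.40, Figla at 0.23, Lhx8 at 0.08 and Sohlh1 at 0.07 (exact permutation p 0.2, 0.1, 0.5, 0.3 and 0.8, two-sided). Sohlh2 did not overlap between the groups, with the DEHP lineage higher as for 17.4% of all genes, and the shift applied to every gene is part of these values. The 7 permutation p-values are not adjusted. As the removed direction bore mainly on the DEHP lineage, the ovaries are not fully exchangeable between lineages, and these p-values are approximate. By limma over the whole table on this scale 0 of the 7 factors passed, and 0 had an unadjusted p under 0.05, while 294 of all genes (1.79%) passed.

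Genes tied to FIGLA or NOBOX in mouse work had log2 fold changes below 0, and none of them passed the adjusted threshold. The zona genes Zp1, Zp2 and Zp3, which FIGLA activates, had log2 fold changes of -0.23, -0.25 and -0.23 (limma adjusted p 0.697, 0.607 and 0.71), and 0 of 3 had an unadjusted p under 0.05. Of 10 listed genes reported as lower in Nobox-null mouse ovaries or as bound by NOBOX, 8 were measured. All 8 had log2 fold changes below 0, with a median of -0.21, and 3 had an unadjusted p under 0.05. Over all genes 53.1% were below 0 and 8.78% had an unadjusted p under 0.05. Bmp15, an oocyte growth factor, was at 114, 116 and 116 CPM in DEHP-lineage replicates 1, 2 and 3, against 151, 139 and 150 CPM in control-lineage replicates 1, 2 and 3 (log2 fold change -0.35, SE 0.069, limma adjusted p 0.296). Gdf9 was at -0.31 (adjusted p 0.502 by limma) and H1foo, the oocyte linker histone gene, at -0.24 (adjusted p 0.491 by limma). The groups did not overlap for Bmp15, Gdf9 and H1foo, with the DEHP lineage lower as for 12.2% of all genes. Zar1 and Oosp1, also oocyte genes, were at -0.20 and -0.22. The rest of the measured genes, Mos, Fgf8 and Rfpl4, were nearer 0, at -0.12, -0.055 and -0.03. Most of these genes are in the oocyte list, in which 20 of 21 had log2 fold changes below 0, 4 with an unadjusted p under 0.05, and a median of -0.20. The one above 0 was Dazl, at 0.16 (limma adjusted p 0.738).

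**Figure D4:**
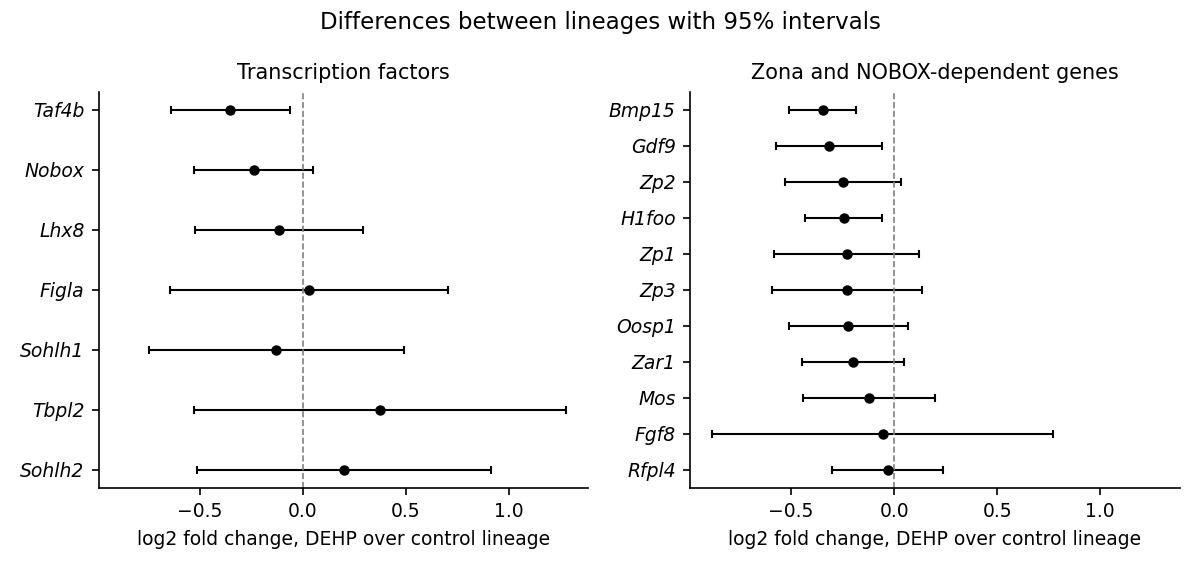
Log2 fold changes, DEHP over control lineage, with 95% intervals from limma, for the 7 factors (left) and for the zona and NOBOX-dependent genes (right). The intervals of Taf4b, Bmp15, Gdf9 and H1foo lie below 0, and no gene shown has an adjusted p under 0.05.

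The dimer partners of the bHLH factors showed smaller differences. Tcf3 had a log2 fold change of -0.004 (95% interval -0.18 to 0.17) and Tcf12 one of -0.03. Of the 7 partners and inhibitors, 0 passed the adjusted p. Id4, an inhibitor of bHLH dimers, had the smallest p, at 8.79, 8.75 and 9.41 CPM in DEHP-lineage replicates 1, 2 and 3 and 14.3, 10.8 and 10.9 CPM in control-lineage replicates 1, 2 and 3 (log2 fold change -0.40, SE 0.16, limma adjusted p 0.558). Ldb1, which bridges LIM homeodomain proteins, was at 0.15 (95% interval -0.07 to 0.38). All 5 LIM cofactor genes had log2 fold changes above 0, where 53.1% of all genes were below 0. Of the 5, 0 were past an adjusted or unadjusted p of 0.05 by limma.

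Among the genes of the general machinery, the widely expressed paralogs of TBPL2 and TAF4B were close to 0. Tbp had a log2 fold change of -0.03 (95% interval -0.23 to 0.16), Tbpl1 one of 0.01 (-0.18 to 0.20) and Taf4 one of 0.03 (-0.14 to 0.19). Tbp shared 18.54% and Tbpl1 11.64% of their 31-base words with other genes, and Tbp, Tbpl1 and Taf4 overlap exons on the other strand, so their levels are less certain. Gtf2a1l, which encodes a TFIIA subunit variant of germ cells, was at 3.97, 5.40 and 4.55 CPM in DEHP-lineage replicates 1, 2 and 3, against 9.17, 7.54 and 6.20 CPM in control-lineage replicates 1, 2 and 3. The groups did not overlap, with the DEHP lineage lower as for 12.2% of all genes. The log2 fold change of -0.71 (SE 0.22) had an adjusted p of 0.491 by limma. Of 13 measured TFIID subunit genes, 0 passed the adjusted p, and 7 had log2 fold changes below 0, with a median of -0.02. That count is near the share over all genes, 53.1%. Taf9 had the smallest p of them (-0.22, limma adjusted p 0.558). Stat3, Dynll1 and Sub1, which together with Figla, Nobox, Sohlh1, Lhx8 and Tbpl2 turn mouse stem cells into oocyte-like cells, were at 0.02, -0.04 and -0.08. Obox1, Obox2 and Obox5, oocyte homeobox genes, were at -0.09, -0.59 and -0.22, and Foxo3, which holds primordial follicles dormant, was at 0.15, with 0 of the 5 measured genes of that list past the adjusted p.

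Markers of other cells were summed beside these values. Smooth muscle genes, which encode contractile proteins, had all 6 log2 fold changes below 0, where 53.1% of all genes were below 0. Their sums were 1464 to 1720 CPM in DEHP-lineage ovaries against 1861 to 2074 CPM in control-lineage ovaries. The sum of 7 theca genes was 2586 to 2671 CPM in DEHP-lineage ovaries and 2783 to 3453 CPM in control-lineage ovaries. Most of it was Hsd3b1, at 2044 to 2085 CPM in DEHP-lineage ovaries and 2090 to 2777 CPM in control-lineage ovaries (log2 fold change -0.18, limma adjusted p 0.748). The sum of 10 granulosa cell genes was 12087 to 13235 CPM in DEHP-lineage ovaries and 10829 to 12255 CPM in control-lineage ovaries. A large part of it was Inha, at 4573 to 5517 CPM in DEHP-lineage ovaries and 3815 to 4489 CPM in control-lineage ovaries. Of the 10 granulosa cell genes, 6 had log2 fold changes below 0. The median of 10 granulosa cell genes relative to each gene's mean was 0.04, -0.07 and 0.01 in DEHP-lineage replicates 1, 2 and 3 and -0.03, -0.01 and 0.08 in control-lineage replicates 1, 2 and 3. That of the theca genes was highest in control replicate 2 (0.67), the control ovary with the lowest oocyte level. Summed CPM of 5 adipocyte genes ran from 33.2 to 259 in DEHP-lineage ovaries and from 41.6 to 148 in control-lineage ovaries. Summed CPM of 4 measured globin and erythroid genes ran from 115 to 278 in DEHP-lineage ovaries and from 65.5 to 126 in control-lineage ovaries, and that of 5 macrophage genes from 37.6 to 41.7 in DEHP-lineage ovaries and from 19.5 to 65.9 in control-lineage ovaries. Summed CPM of 5 oviduct genes ran from 16.3 to 26.2 in DEHP-lineage ovaries and from 11.3 to 16.7 in control-lineage ovaries. The part of these cells in the differences above was not tested.

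The genes most like the median profile of the 7 factors, out of 14435 ranked by root mean square difference, were Mri1 (0.030), of methionine salvage, Cds1 (0.031), of phospholipid synthesis, Lhb (0.033), the beta subunit of luteinizing hormone, and Cd164l2 (0.034). Of the 7, Lhx8 (0.073), Nobox (0.088) and Sohlh1 (0.091) were nearest to that profile and Tbpl2 (0.36) was farthest. In the deposited annotation, 5 of the 7 carried the term oogenesis, which 31 genes of the table carried: Figla, Nobox, Sohlh1, Sohlh2 and Taf4b.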

How the data were processed

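The authors deposited one table of log2 CPM per ovary for 16454 genes, beside their own log2 fold change and p-value for the DEHP lineage. Per the file name, a surrogate variable had been removed. The submitters' processing notes name the build GRCm38.p6 and edgeR 3.20.5, R 3.4.3, Subread 1.5.2 with featureCounts, STAR 2.5.3a, Trimmomatic 0.36, FastQC 0.11.5 and bcl2fastq 2.17.1.14. No source used here gives their settings or the prior count. The libraries were strand-marking, per the labels' protocols.

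The lineages were compared with limma 3.58.1 in R 4.3.3 on the deposited values, two-sided, with a mean-variance trend and Benjamini-Hochberg adjustment over all genes. The deviations from the group means filled 3 of 4 directions. The empty one was a covariate, leaving 3 residual degrees of freedom. CPM values are 2 to the power of the deposited log2 CPM. All 7 factors were named whatever their values, and of each list up to 4 genes with the smallest p or set partners and paralogs. All measured genes of the NOBOX list, Dazl and Hsd3b1 were named as well. The members and lists were chosen with earlier results of these data known.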

Additional observations from a re-analysis of the deposited data

How the results depend on the processing

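No factor passed an adjusted p of 0.05 in any of the 16 alternatives to the reported fit, so the count of members stayed at 0, and Taf4b, Nobox and Sohlh2 kept their direction in all 16. Figla changed direction after quantile normalization (-0.043), with DEHP-lineage replicates 1 and 3 averaged (-0.098) and in fits without 1 ovary (-0.118 to 0.291). Sohlh1 did so in fits without 1 ovary (-0.351 to 0.015) and when ovaries were re-centred by the oocyte list (0.067), as did Lhx8 under that re-centring (0.08). Tbpl2 ran from -0.008 to 0.639 without 1 ovary, and the median of the 7 from -0.26 to 0.015; that median was 0.08 under the re-centring. Without 1 ovary Lhx8 ran from -0.26 to -0.013, Nobox from -0.342 to -0.139 and Sohlh2 from 0.044 to 0.342. The number of all genes called was 7 as reported, 20 with 4 residual degrees of freedom, 3 after quantile normalization, 3 after median centring, 1 without the mean-variance trend, 294 when re-centred by the oocyte list (an alternative chosen after seeing the data, which shifts every gene) and 2 to 35 without 1 ovary. With the replicate number as a block it was 6, and the log2 fold change of Taf4b was -0.351 with a limma adjusted p of 0.317. Deviations of same-numbered ovaries had correlations of -0.327, -0.003 and -0.198 across genes. The removal of a direction shared by these ovaries shapes such correlations, so they do not decide whether the numbers pair the ovaries. With 3 ovaries a lineage and unknown depth, intervals of the low genes Sohlh2, Figla, Sohlh1 and Tbpl2 span at least 0.5 on the log2 scale to either side of the estimate.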
